A study of Mus musculus with 6 samples.

Results

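The genes around the Leene locus on mouse chromosome 14 were taken from RNA-seq counts of CD144-enriched cells, that is, cells pulled out with beads against VE-cadherin to enrich endothelial cells (ECs). They are all genes counted in the files that lie whole between positions 45400000 and 50500000 of chromosome 14 on GRCm38, of any biotype, 87 of 47729 genes in all. The rule takes genes by position alone, but the region itself was picked with earlier results of these data known. Of the 87 genes, 45 are protein coding, 29 are noncoding genes or pseudogenes, and 13 had no name under their identifier. A total of 57 genes had at least 1 read and 30 had none. The 23 genes with 15 or more reads summed over the 6 libraries were tested, and the other 64 were not.

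The cells came from ischemic muscle of mice that ate a high-fat, high-sucrose diet and had hind limb ischemia (HLI) surgery on day 0. The muscle received adenovirus on days 1 and 4 by the labels, or had the second injection later by the study's methods, and was taken after 1 week. There were 3 groups of 2 libraries. WT + GFP were WT mice given Ad-GFP, an adenovirus for green fluorescent protein. KO + GFP were Leene-KO mice given the same vector, and KO + LEENE were Leene-KO mice given Ad-LEENE, an adenovirus for GFP-tagged human LEENE. Diet, surgery and injection were common to the 3 groups, and the germline CRISPR/Cas9 deletion was common to both KO groups. The deletion took out a stretch with an upstream enhancer together with the noncoding gene, in every cell of the animal and not in ECs alone, so a change of the RNA and a change of the DNA element cannot be told apart in KO + GFP. The paper adds that further noncoding transcripts, Gm35360 and Gm49302, were later annotated in the same region. It does not exclude that their loss plays a part, and their loss cannot be told apart here either. Ad-LEENE gives back a human RNA from a vector and leaves the deletion in place. The age and sex of the animals behind a library are not in the labels.

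Leene is a long noncoding RNA of ECs transcribed from an enhancer. Enhancers act on promoters of the same chromosome, often on neighbors and sometimes across other genes, so the genes that flank a deleted enhancer are where an effect in cis is usually looked for. RNA supplied from a vector does not arise at the locus and is said to act in trans. The chromosomal neighbors here do unlike work in the cell. Among them are Ktn1, for a kinesin-binding protein of the endoplasmic reticulum, Fermt2, for an integrin activator of focal adhesions, and Bmp4, for a secreted growth factor. Gch1, whose enzyme starts the synthesis of the eNOS cofactor tetrahydrobiopterin, lies here too, as does a cluster of olfactory receptor genes.

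The locus itself lies in the gap of 384.305 kb between Ktn1 (47648448 to 47736564, plus strand) and Peli2 (48120869 to 48260883, plus strand). The Leene homolog, Gm41148, is placed by RefSeq at 47791038 to 47805372, which is 54.474 kb past the end of Ktn1 and 315.497 kb before Peli2. It was not analysed here, nor were Gm35360 (47814235 to 47823090) and Gm49302, which lie in the same deleted region. The genotype was therefore not checked against the targeted gene, and the human LEENE and GFP of the vectors were not analysed here either. Of the genes counted, 2 lie in the gap. ENSMUSG00000102171 (47737339 to 47739894) had 3 and 2 reads (WT + GFP), 0 and 2 (KO + GFP) and 2 and 0 (KO + LEENE), and the pseudogene Gm6055 had none. Distances below run from the midpoint of the gap to the nearest edge of a gene.

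The promoter of Ktn1, the nearest tested gene to the locus, is shown first, as RefSeq gives it on GRCm38.p6 (chr14:47649061-47649360, plus strand, 250 bases before to 50 bases after the RefSeq start). The capitals mark CACGTG, the letters of the E-box that MYC and related factors can bind; the match begins 207 bases before the start.
Ktn1 promoter: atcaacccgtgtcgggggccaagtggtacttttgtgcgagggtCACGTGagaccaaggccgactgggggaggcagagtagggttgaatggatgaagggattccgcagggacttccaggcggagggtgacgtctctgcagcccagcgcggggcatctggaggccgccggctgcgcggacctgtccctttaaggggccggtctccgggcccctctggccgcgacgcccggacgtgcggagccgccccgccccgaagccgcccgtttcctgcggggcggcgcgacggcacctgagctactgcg
The 6 letters read the same on both strands and overlap no other motif searched. They occur in 2349 of 32851 promoter windows of this length (7.15%). Of the 23 tested genes, 16 had a window, and those of Ktn1 and Bmp4 hold the motif. A match shows only that the letters are there.

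Exoc5 and Ap5m1 are printed because they form a head-to-head pair whose reads moved together below. Exoc5 lies at chr14:49066618-49066917 (minus strand) and Ap5m1 at chr14:49066299-49066598 (plus strand) in the same build, and the capitals mark the 50 bases from each start.
Exoc5 promoter: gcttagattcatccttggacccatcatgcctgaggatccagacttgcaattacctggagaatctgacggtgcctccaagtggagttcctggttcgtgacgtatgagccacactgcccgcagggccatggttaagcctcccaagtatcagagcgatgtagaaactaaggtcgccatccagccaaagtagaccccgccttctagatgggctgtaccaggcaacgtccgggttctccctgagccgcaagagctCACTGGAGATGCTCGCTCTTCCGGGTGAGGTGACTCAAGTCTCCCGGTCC
Ap5m1 promoter: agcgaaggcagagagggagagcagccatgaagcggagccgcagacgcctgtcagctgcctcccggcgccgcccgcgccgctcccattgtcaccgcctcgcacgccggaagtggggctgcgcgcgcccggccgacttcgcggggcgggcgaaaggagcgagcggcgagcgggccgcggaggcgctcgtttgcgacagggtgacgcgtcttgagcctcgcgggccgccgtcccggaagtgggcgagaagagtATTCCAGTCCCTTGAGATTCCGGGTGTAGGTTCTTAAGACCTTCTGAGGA
These windows share 0 bases and stand 19 bases apart, while the gene bodies in the counted annotation overlap by 159 bases. The window of Ap5m1 holds 41 CpG and that of Exoc5 holds 13. A second head-to-head pair, Wdhd1 and Socs4, begins 73 bases apart with 162 bases of promoter window in common, and neither of its genes was called in the fit used here. The mature miRNA of Mir378c is given because its reads occurred in a single group, with its seed (bases 2 to 8) in capitals (chr14:46954905-46954925, minus strand).
mmu-miR-378c: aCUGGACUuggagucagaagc

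The libraries held 1770992 to 5602603 reads assigned to genes, the smallest being those of KO + LEENE. Mitochondrially encoded genes took 50.1% to 50.9% of reads in WT + GFP and 33.6% to 34.3% in both KO groups. The libraries of a group share a facility number, and nothing says that they came from different mice. For the genes around the locus, no difference beyond sampling noise was detected between the libraries of a pair (chi-square P = 0.998 for WT + GFP, 0.129 for KO + GFP and 0.252 for KO + LEENE). This rests on 13, 13 and 8 genes with enough reads, too few to show agreement. Over 5940, 5280 and 4514 genes of the whole set, the libraries differed by more than sampling noise. The chi-square per gene was 0.239, 1.45 and 1.27 around the locus, beside 10.0, 1.38 and 1.20 over all genes. All P values therefore compare libraries and may miss the variation between mice. Cdh5, the gene of the bead target CD144, had 332 and 283 reads (WT + GFP), 322 and 196 (KO + GFP), but only 5 and 18 (KO + LEENE). The summed level of 10 endothelial markers was 374 to 399 CPM (counts rescaled so that every library has the same total) in WT + GFP, 2408 to 2593 in KO + GFP and 109 to 122 in KO + LEENE. Most of the KO + GFP sum came from Emcn, with 12245 and 8648 reads. Emcn and Tie1 were called higher there than in WT + GFP, and Kdr, Erg and Pecam1 lower. In KO + LEENE against KO + GFP, Egfl7 and Kdr were called higher, and 5 of the 8 tested markers lower. Against WT + GFP, Egfl7 was called higher in KO + LEENE and 3 markers lower. Fibroblast markers (6 genes) summed to 58.2 to 62.0, 12499 to 12548 and 68.7 to 72.3 CPM. Of these, Lum and S100a4 were at 0 in both KO groups while Dcn had 63633 and 40842 reads in KO + GFP. Macrophage markers (6 genes) stood at 13.9 to 20.1, 470 to 504 and 6.21 to 7.26 CPM, with Cd68 at 0 in WT + GFP and KO + LEENE and Itgam at 0 in both KO groups. Mural markers (5 genes) summed to 3.09 to 3.15, 3.31 to 4.46 and 36.7 to 48.0 CPM. In KO + LEENE, Rgs5 had 51 and 69 reads and Acta2 had 3 and 2. Skeletal muscle markers (6 genes) summed to 3.63 to 7.06, 19.0 to 19.6 and 27.9 to 31.6 CPM. Of these, Myh4 had 102 and 65 reads in KO + GFP, and Acta1 had 53 and 43 in KO + LEENE. Neutrophil markers were at most 2.87 CPM in any library. The marker levels moved with the groups, and their part in the results below was not tested.

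To ask how the nearest neighbors of the deleted locus were expressed, Ktn1 and Peli2 were examined. By qPCR, the paper found no marked change of either gene in tissues of KO mice beside WT littermates. That is another measure in other samples than the CD144-enriched cells here, and why the values differ was not tested. Ktn1 had 224 and 219 reads (WT + GFP), 749 and 550 (KO + GFP) and 1006 and 1035 (KO + LEENE). In CPM this was 51.2 ± 2.60 (SD, n = 2), 143 ± 12.7 and 573 ± 6.89, so the groups did not overlap and the level was lowest in WT + GFP and highest in KO + LEENE. Relative to WT + GFP, Ktn1 rose in KO + GFP by 1.91 ± 0.105 (SE) on the log2 scale (adjusted P = 2.77e-73, edgeR's quasi-likelihood test). Relative to KO + GFP it rose further with Ad-LEENE, by 0.96 ± 0.0917 (adjusted P = 8.43e-25, edgeR). Against WT + GFP the difference in KO + LEENE was 2.87 ± 0.103 (adjusted P = 6.93e-169, edgeR). These differences, and all differences, ratios and bounds below, rest on TMM scaling, whereas CPM rests on library totals. Library totals alone would multiply every ratio of KO + GFP to WT + GFP by 0.732, of KO + LEENE to KO + GFP by 2.09 and of KO + LEENE to WT + GFP by 1.53. For Ktn1 the log2 differences by library totals were 1.47, 2.01 and 3.49, all called. With Ad-LEENE, the level of Ktn1 in KO cells was thus farther from WT + GFP, not nearer to it. Fewer cells of a type that expresses a gene and less RNA per cell cannot be told apart in such bulk samples.

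On the other flank, Peli2, for an E3 ubiquitin ligase of Toll-like receptor signaling, had 4 and 1 reads (WT + GFP), 2 and 0 (KO + GFP) and 2 and 2 (KO + LEENE). With 11 reads in all it was not tested, and a difference was not detectable at this depth. Further genes within 500 kb were as sparse. Fbxo34, for an F-box protein, had 8 reads in all and Atg14, for a subunit of the autophagy lipid kinase, had 4. Ktn1 was the only tested gene of the 9 within 500 kb of the midpoint.

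The question whether the genes around the locus changed more than genes elsewhere was addressed with counts of calls. A gene was called at an adjusted P value under 0.05. Below, a change with the KO is that of KO + GFP against WT + GFP, and a change with Ad-LEENE is that of KO + LEENE against KO + GFP. In KO + GFP against WT + GFP, 14 of the 23 tested genes were called (60.9%), beside 60.9% of all 12051 genes tested and 60.1% of the 323 other chromosome 14 genes. There were 10 higher and 4 lower, where 29.9% and 31% of all genes were called higher and lower. In KO + LEENE against KO + GFP, 14 were called, 5 higher and 9 lower, beside a background of 55.9% (25.9% higher and 30% lower). In KO + LEENE against WT + GFP, 11 were called (47.8%), 6 higher and 5 lower, beside 58.3% (26.4% higher and 31.8% lower). The shares were near the background in the first 2 comparisons and below it in the last, so the counts show nothing particular to the region. These comparisons share libraries and are not independent of each other.

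**Figure D1:**
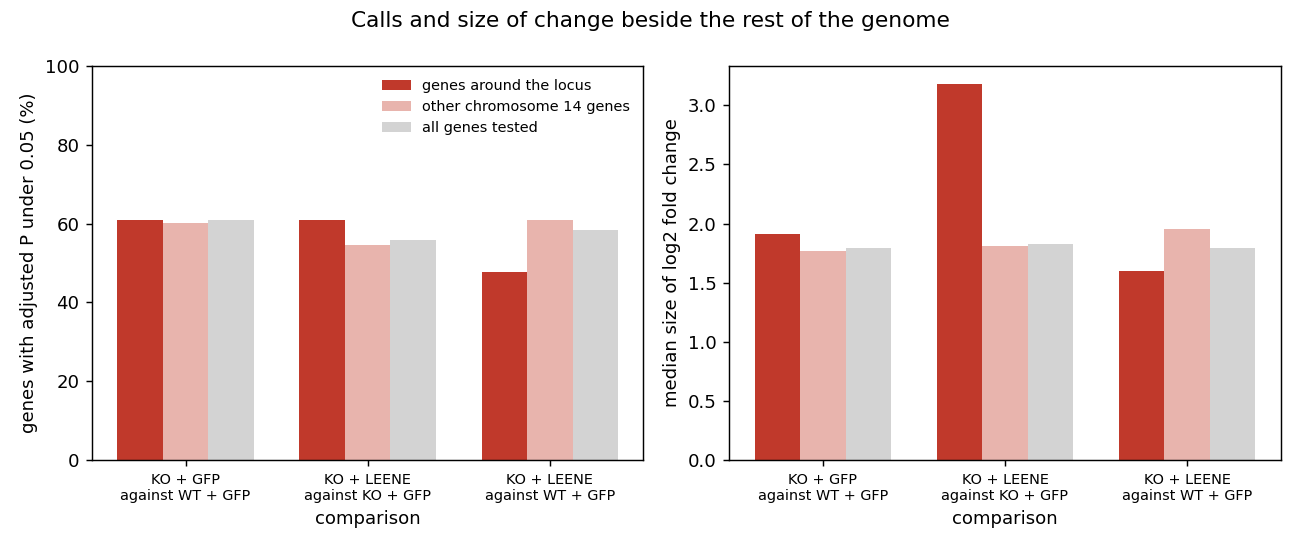
Share of tested genes called (left, percent) and median size of the log2 fold change (right, fitted values) for the 23 tested genes around the locus, the 323 other tested chromosome 14 genes and all 12051 tested genes, in each comparison. The left bars stand close together except for KO + LEENE against WT + GFP, where the genes around the locus are lowest at 47.8%.

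The size of change was described beside the count. The median size of the log2 fold change of the 23 genes was 1.91 in KO + GFP against WT + GFP, beside 1.80 for all genes tested. It was 3.18 beside 1.83 in KO + LEENE against KO + GFP, and 1.60 beside 1.80 in KO + LEENE against WT + GFP. Some genes had no read in one of the groups compared (2, 6 and 5 genes, respectively), and their fitted change depends on the model. With such genes set to the least change that a floor of 3 reads over the empty group allows, the medians were 1.75, 2.25 and 1.15, beside 1.68, 1.58 and 1.59 for all genes treated alike. The larger median in KO + LEENE against KO + GFP stayed above that of all genes, with a smaller gap.

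Genes of trafficking, cytoskeleton and adhesion came next. Fermt2 (45458792 to 45530118, minus strand) encodes kindlin-2, which activates integrins. It had 587 and 514 reads (WT + GFP), 1296 and 865 (KO + GFP) and 88 and 104 (KO + LEENE). The level was highest in KO + GFP and lowest in KO + LEENE, with no overlap between groups in CPM. Fermt2 rose by 1.33 ± 0.0873 between KO + GFP and WT + GFP (adjusted P = 2.42e-51, edgeR). It fell by 3.18 ± 0.111 in KO + LEENE against KO + GFP (adjusted P = 1.71e-175) and was 3.60-fold lower than in WT + GFP (95% counting interval 3.09 to 4.22). By library totals alone these were -2.12 on the log2 scale and 2.35-fold lower, below that interval.

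Exoc5 (49012146 to 49066653) encodes a subunit of the exocyst, the complex that tethers secretory vesicles to the plasma membrane. It had 20 and 17 reads (WT + GFP), 531 and 337 (KO + GFP) and 9 and 9 (KO + LEENE). Its neighbor Ap5m1 (49066495 to 49087723), for the medium subunit of the AP-5 adaptor of late endosomes, had 1 and 1 reads, then 93 and 58, then 1 and 2. Both genes were high in the KO + GFP libraries alone. Exoc5 was 30.1-fold higher with the KO (KO + GFP against WT + GFP, 21.6 to 43.0) and 38.8-fold lower with Ad-LEENE (KO + LEENE against KO + GFP, 24.4 to 65.8), with adjusted P = 1.68e-189 and 2.34e-148 (edgeR); the latter was 18.6-fold by library totals. For Ap5m1 the log2 differences were 6.39 ± 0.481 and -5.25 ± 0.482 (adjusted P = 2.0e-39 and 7.75e-27, edgeR). Between KO + LEENE and WT + GFP neither was called (adjusted P = 0.479 and 0.471, edgeR). The exons of the pair overlap and reads were counted without strand, so reads in the shared bases cannot be given to one gene.

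The other exocyst genes were read as a list. Of 8 listed, 6 were tested. In KO + GFP against WT + GFP, 1 rose (Exoc6) and 4 fell (Exoc4, Exoc6b, Exoc7 and Exoc8), beside 60.9% of all genes called in this comparison, so the count shows nothing particular to the complex. Exoc4 had 67 and 60 reads (WT + GFP), 4 and 2 (KO + GFP) and 2 and 1 (KO + LEENE). In KO + LEENE against KO + GFP, 3 rose and 2 fell, and against WT + GFP 2 rose and 2 fell, where 55.9% and 58.3% of all genes were called. By library totals alone these were 4 and 1, and 4 and 2, and the signs of Exoc4 and Exoc6 turned in the former and that of Exoc8 in the latter, as did that of Exoc1 in KO + GFP against WT + GFP. Of these, Exoc6 had been called lower in KO + LEENE against KO + GFP (log2 difference -0.73, adjusted P = 4.96e-13, edgeR), so its direction there depends on the scaling. Exoc1 had 53 and 26 reads, then 42 and 40, then 1422 and 1342, and was high in KO + LEENE alone. The subunits thus had their highest reads in different groups.

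Cnih1, for a cargo receptor of endoplasmic reticulum export, had at most 2 reads in a WT + GFP library, 16 and 9 in KO + GFP, and none in KO + LEENE. It was called higher with the KO (log2 difference 3.80 ± 0.799, adjusted P = 5.15e-06, edgeR) and lower with Ad-LEENE, by at least 6.70-fold with TMM scaling and 3.21-fold by library totals, taking a floor of 3 reads over the empty group. Gmfb, for an actin-disassembly factor, had 11 reads in all and was not tested.

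**Figure D2:**
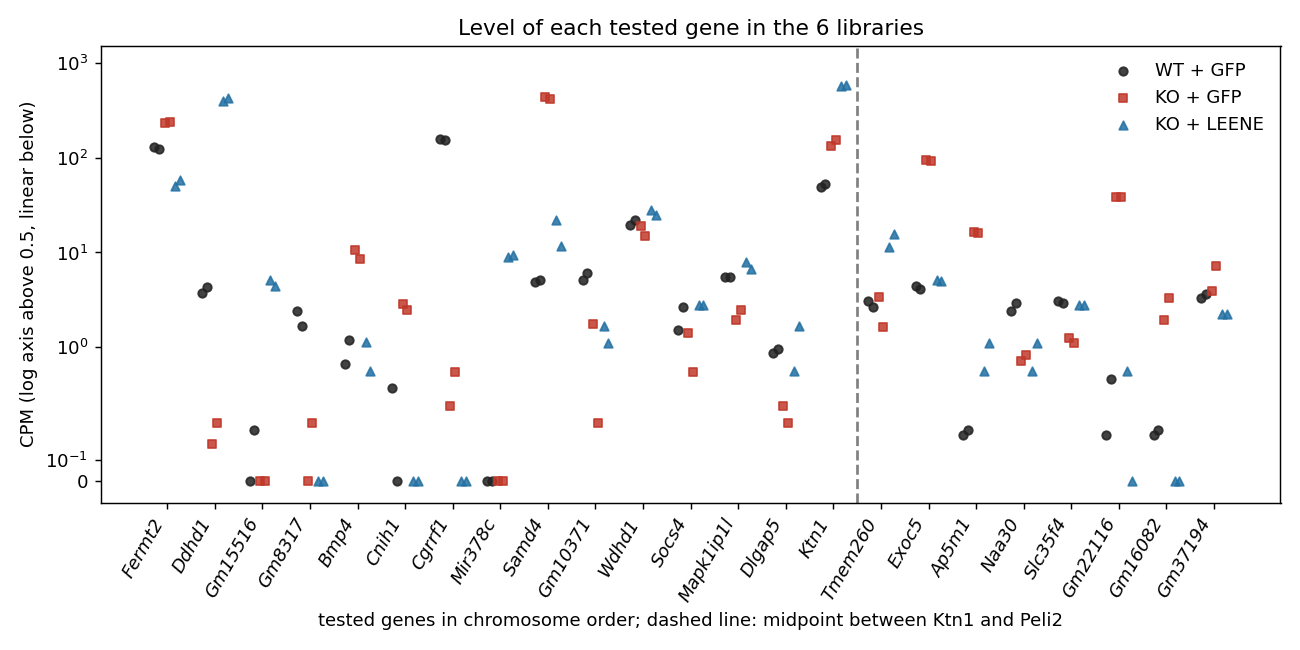
Level of each of the 23 tested genes in the 6 libraries (CPM, log axis above 0.5 and linear below), in chromosome order with a dashed line at the midpoint between Ktn1 and Peli2. Each point is 1 library; Samd4, Exoc5, Ap5m1 and Gm22116 are high in KO + GFP, Cgrrf1 in WT + GFP, and Ddhd1 and Mir378c in KO + LEENE.

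Genes of signaling and metabolism held the largest rise. Ddhd1 (45593174 to 45658143, minus strand) encodes a phospholipase A1 that acts on phosphatidic acid. It had 17 and 18 reads (WT + GFP), 1 and 1 (KO + GFP) and 698 and 751 (KO + LEENE). The groups were widely apart, with KO + GFP lowest. Ddhd1 fell by 3.62 ± 0.669 between KO + GFP and WT + GFP (adjusted P = 3.35e-07, edgeR). With Ad-LEENE it rose by 9.65 ± 0.226 on the log2 scale over KO + GFP, which rests on 2 reads in KO + GFP and gives a 900-fold ratio with a counting interval of 249 to 7442. Against WT + GFP the ratio was 66.0-fold (47.2 to 95.1). By library totals these ratios were 1882-fold and 101-fold. For both, edgeR returned an adjusted P value of 0. Ddhd1 lies 2271 kb from the midpoint, among the farthest genes examined, and its exons overlap those of ENSMUSG00000085913 and Mir5131.

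Bmp4, a ligand of the TGF-β family that acts through BMP receptors and SMAD proteins, had 3 and 5 reads (WT + GFP), 59 and 31 (KO + GFP) and 2 and 1 (KO + LEENE). Bmp4 rose by 3.79 ± 0.428 with the KO and fell by 4.50 ± 0.554 with Ad-LEENE, with adjusted P = 3.58e-18 and 1.94e-15 (edgeR). KO + LEENE and WT + GFP were not told apart (adjusted P = 0.568, edgeR). The rest of the BMP pathway did not share one direction. Of 14 genes listed, 11 were tested, and in KO + GFP against WT + GFP 2 rose and 4 fell, beside 60.9% of all genes called. The receptor gene Bmpr2 had 683 and 591 reads (WT + GFP), 32 and 11 (KO + GFP) and 25 and 12 (KO + LEENE). The target gene Id3 had 1204 and 1013, then 68 and 50, then 5 and 6. Both were low in the KO groups, but not every receptor and target was: Acvrl1, for another receptor, and the target Id1 were called higher in KO + LEENE against WT + GFP (log2 differences 0.90 ± 0.323 and 2.37 ± 0.724, adjusted P = 0.0110 and 0.00233, edgeR). Smad1, for a signal transducer, had 9 and 17 reads, then 239 and 162, then 238 and 235. In KO + LEENE against KO + GFP 3 of the 11 rose and 2 fell, and against WT + GFP 4 rose and 4 fell, where 55.9% and 58.3% of all genes were called, and nothing is read from these counts about the pathway. By library totals alone these counts were 6 and 1, and 5 and 3, and the signs of Eng and Acvrl1 turned in KO + GFP against WT + GFP.

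Of the other genes of this role, Mapk1ip1l had 25 and 23 reads (WT + GFP), 11 and 9 (KO + GFP) and 14 and 12 (KO + LEENE). Its log2 difference in KO + GFP against WT + GFP was -0.90 ± 0.414, which missed the threshold narrowly in edgeR's test. Mapk1ip1l was called lower there by library totals alone (-1.34, adjusted P = 0.00184, edgeR), with DESeq2-type size factors (adjusted P = 0.0429) and without either KO + LEENE library (0.0449 and 0.0440). It was not called in the other comparisons, although by library totals alone it rose by 1.74 in KO + LEENE against KO + GFP (adjusted P = 0.000525, edgeR). Socs4, for a suppressor of cytokine receptor signaling, had 2 to 11 reads per library and was not called in any comparison. Gch1 had 2 reads, both in the second WT + GFP library, so nothing can be said of it at this depth. Lgals3, for galectin-3, had 12 reads in all.

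Among genes of protein turnover and modification, Cgrrf1 (46832134 to 46854193, plus strand), for a RING finger protein of the ubiquitin system, was nearly confined to WT + GFP. It had 709 and 625 reads there, 2 and 2 with KO + GFP, and 0 and 0 with KO + LEENE. Relative to WT + GFP, Cgrrf1 was 260-fold lower in KO + GFP (101 to 956, adjusted P = 8.86e-247, edgeR) and at least 279-fold lower in the KO + LEENE libraries (adjusted P = 1.48e-221, edgeR), or at least 183-fold by library totals. Supplying LEENE was not followed by any read of this gene. Naa30, for the catalytic subunit of an N-terminal acetyltransferase, had 11 and 12, then 4 and 3, then 1 and 2 reads. It was called only in KO + LEENE against WT + GFP (log2 difference -2.20 ± 0.802, adjusted P = 0.0121, edgeR). That call of Naa30 was lost with DESeq2 (adjusted P = 0.0928), with library totals alone (0.0862), without the first KO + LEENE library (0.108) and without the second WT + GFP library (0.0538). With library totals alone, Naa30 was called lower with the KO (-1.76, adjusted P = 0.00911, edgeR).

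Samd4 (46882854 to 47105817, plus strand) encodes Smaug, an RNA-binding protein that represses translation. It had 22 and 21 reads (WT + GFP), 2406 and 1500 (KO + GFP) and 39 and 21 (KO + LEENE). Its reads were high in the KO + GFP libraries alone. Samd4 was 116-fold higher with the KO (86.3 to 161) and 52.4-fold lower with Ad-LEENE (40.6 to 68.8; 25.1-fold by library totals), both with an adjusted P value that edgeR returned as 0. KO + LEENE stayed above WT + GFP by 1.15 ± 0.263 (adjusted P = 0.000139, edgeR), a call that was lost without the first KO + LEENE library (adjusted P = 0.171). Otx2, for a homeobox transcription factor, had 13 reads in all and was not tested.

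Genes of cell division were not called in the fit used here, but Wdhd1 lay near the threshold. Wdhd1, for a DNA-binding protein of the replication fork, had 88 and 91 reads (WT + GFP), 106 and 54 (KO + GFP) and 50 and 44 (KO + LEENE). It was not called in any comparison, with log2 differences of 0.19, -0.45 and -0.26 (adjusted P = 0.373, 0.0568 and 0.290, edgeR). The counting intervals of the pooled ratios allow a level up to 1.43-fold higher with the KO and up to 1.79-fold lower with Ad-LEENE. The sign in all 3 comparisons depended on the scaling: with library totals alone they were -0.26, 0.61 (adjusted P = 0.00925, edgeR) and 0.35. With Ad-LEENE, Wdhd1 was called lower after filterByExpr (adjusted P = 0.0179), with at least 10 reads required in every library (0.0227) and without the second KO + GFP library (0.0256). Dlgap5, for a spindle protein, had 1 to 4 reads per library and was not called, and Cdkn3 had 5 reads in all.

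The membrane protein genes differed from each other. Tmem260, the nearest tested gene on the Peli2 side at 517 kb, had 14 and 11 reads (WT + GFP), 19 and 6 (KO + GFP) and 20 and 28 (KO + LEENE). It was not called in KO + GFP against WT + GFP (log2 difference 0.35 ± 0.452, adjusted P = 0.528, edgeR; with library totals alone the sign turned, to -0.10). It was higher in KO + LEENE, by 1.25 ± 0.388 against KO + GFP and 1.60 ± 0.386 against WT + GFP (adjusted P = 0.00275 and 8.67e-05, edgeR). The first of these was lost without the second KO + GFP library (adjusted P = 0.0710) or the second KO + LEENE library (adjusted P = 0.0775). Slc35f4, for a member of a family of solute carriers, had 4 to 14 reads per library and was not called, although by library totals alone it fell by 1.31 with the KO (adjusted P = 0.0259, edgeR).

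Of the tested noncoding genes and pseudogenes, Gm22116, an snRNA gene within Slc35f4, had the most reads. It had 1 and 2 reads (WT + GFP), 213 and 138 (KO + GFP) and 1 and 0 (KO + LEENE), so that it was high in KO + GFP while its host Slc35f4 had 7 and 4 reads there. The log2 differences were 7.09 ± 0.348 in KO + GFP against WT + GFP and -7.88 ± 0.448 in KO + LEENE against KO + GFP (adjusted P = 8.09e-91 and 4.18e-68, edgeR). Copies of snRNA genes are alike, and reads could be split between them.

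Mir378c, whose mature sequence is printed above, lies within Samd4 on the opposite strand. It had no read in the 4 libraries without Ad-LEENE and had 16 and 17 with it, at least 17.5-fold higher than in WT + GFP and 13.7-fold higher than in KO + GFP (26.8-fold and 28.6-fold by library totals). Samd4 was highest in KO + GFP, where Mir378c had no read. Counts over the precursor gene in a 3′ library of polyadenylated RNA do not measure the mature miRNA. Gm10371, a long noncoding RNA gene that overlaps the end of Samd4, had 23 and 25 reads (WT + GFP), 10 and 1 (KO + GFP) and 3 and 2 (KO + LEENE). It was called lower in both KO groups than in WT + GFP (log2 differences -1.75 ± 0.484 and -2.55 ± 0.594, adjusted P = 0.000635 and 4.84e-05, edgeR). The first call was lost without the second KO + GFP library (adjusted P = 0.0507) and with DESeq2 (adjusted P = 0.0725).

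Gm37194, unclassified in the annotation and 2133 kb from the midpoint, had 15 and 15 reads (WT + GFP), 22 and 26 (KO + GFP) and 4 and 4 (KO + LEENE). It rose by 1.04 ± 0.373 between KO + GFP and WT + GFP (adjusted P = 0.0101, edgeR), a call lost without the second KO + GFP library (0.193) or either WT + GFP library (0.0785 and 0.0585), with DESeq2 (0.138) and with library totals alone (0.156). It fell by 2.25 ± 0.516 in KO + LEENE against KO + GFP (adjusted P = 3.47e-05, edgeR). The pseudogenes each had reads mainly in one group. Gm8317 had 11 and 7 in WT + GFP and 1 in all elsewhere, and Gm16082 had 11 and 12 in KO + GFP and 1 or 0 in each other library. Gm15516 had 9 and 8 in KO + LEENE and 1 elsewhere. Each was called against the group in which it was high, but pseudogene reads may come from their parent genes. Each also passed the filter of 15 reads only through that group, so these calls were partly set by the filter. The call of Gm8317 in KO + GFP against WT + GFP was lost without the first KO + GFP library (adjusted P = 0.0943) and with DESeq2 (adjusted P = 0.130).

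The pattern that recurs above, high reads in one group and nearly none in the others, was then counted over all tested genes, a description chosen after the values were seen. In 11 of the 23 genes (47.8%), a single group held over 90% of the sum of the 3 group means in CPM, beside 25.9% of all 12051 genes. They were Cgrrf1 and Gm8317, with WT + GFP high, Samd4, Exoc5, Ap5m1, Cnih1, Gm22116 and Gm16082, with KO + GFP high, and Ddhd1, Gm15516 and Mir378c, with KO + LEENE high. Along the chromosome, neighbors in this list were sometimes high in the same group (Ddhd1 and Gm15516, or Exoc5, Ap5m1, Gm22116 and Gm16082) and sometimes not (Cnih1, Cgrrf1 and Samd4). Of the 11 genes, Gm15516, Gm8317, Gm16082, Cnih1 and Mir378c had few reads, from 18 to 33 in all. Each passed the filter on total reads only through its high group, so its pattern was partly set by the filter. All genes tested passed the same filter, but how many did so through a single group was not counted. Nothing particular to the region is therefore read from 47.8% beside 25.9%. By mean CPM over all 23 genes, WT + GFP was highest in 5, KO + GFP in 9 and KO + LEENE in 9. Over all genes tested these shares were 32.7%, 24.5% and 42.8%. With TMM scaling the 23 genes split into 8, 10 and 5, and all genes into 36.1%, 33.8% and 30.1%, so the order of WT + GFP and KO + LEENE turned with the scaling in both.

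The genes that carried the reads of the region changed accordingly. As a whole, the region's share of a library was 0.0403% ± 4.19e-05 (SD, n = 2) for WT + GFP, 0.09999% ± 5.62e-07 for KO + GFP and 0.114% ± 0.00206 for KO + LEENE. In WT + GFP, Cgrrf1 (38.8% and 37.6%) and Fermt2 (32.1% and 30.9%) made up most of these reads. In KO + GFP, Samd4 led with 42.9% and 41.4%, followed by Fermt2 with 23.1% and 23.9%, and in KO + LEENE Ktn1 led with 50.5% and 50.1%, followed by Ddhd1 with 35.1% and 36.4%. A pair of genes thus held most of the reads in each group, and the leading gene differed between groups. These are shares of reads, not levels per length.

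**Figure D3:**
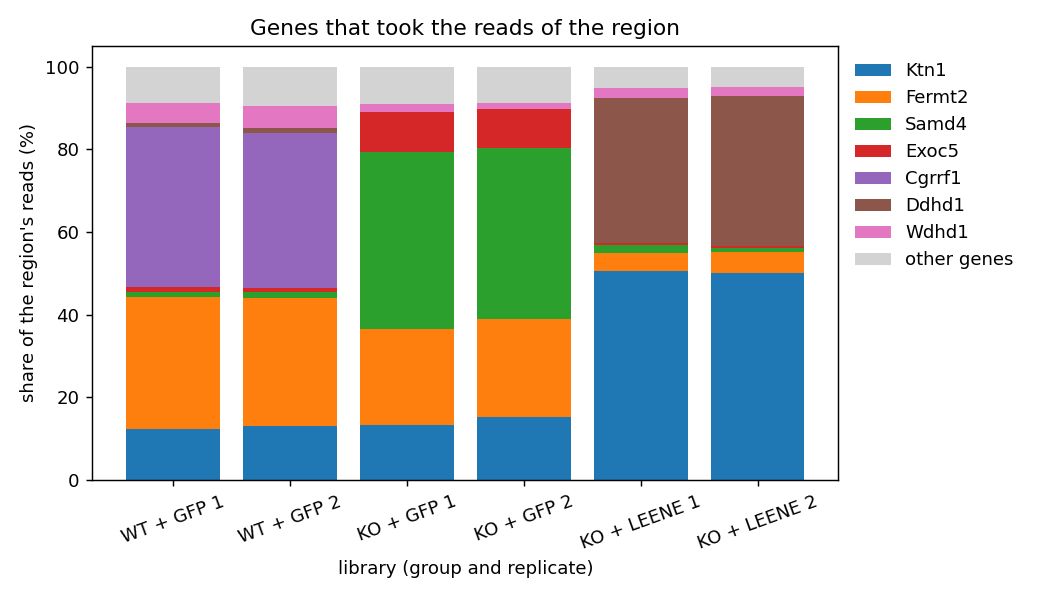
Share of the reads of the region (percent, stacked) taken by each of 7 genes and by the other genes, in the 6 libraries. The libraries of a group look alike, with Cgrrf1 and Fermt2 leading in WT + GFP, Samd4 in KO + GFP, and Ktn1 and Ddhd1 in KO + LEENE.

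Distance from the locus was examined last. Of 9 genes within 500 kb of the midpoint, Ktn1 alone was tested and it was called in all 3 comparisons. Measured from Gm41148 itself, a reference chosen after the values were seen, 4 of 11 genes within 500 kb were tested, and of these Ktn1 was called while Socs4, Mapk1ip1l and Dlgap5 were not. Between 500 kb and 1 Mb, 8 of 17 genes were tested, and 2, 3 and 4 were called in KO + GFP against WT + GFP, KO + LEENE against KO + GFP, and KO + LEENE against WT + GFP, respectively. Between 1 and 2 Mb, 9 of 28 were tested, with 7, 6 and 2 calls. Beyond 2 Mb, 5 of 33 were tested, with 4, 4 and 4 calls. Over all genes the shares called were 60.9%, 55.9% and 58.3%, and with so few genes per class no departure from them is read. In KO + GFP against WT + GFP, the median size of change was 0.69 at 500 kb to 1 Mb, 3.80 at 1 to 2 Mb and 2.07 beyond 2 Mb (1.33 with genes lacking reads in a group at their bound). Ktn1, at 192 kb, had 1.91, and 0.96 and 2.87 in the other comparisons. In KO + LEENE against KO + GFP, the medians were 0.74, 5.25 and 3.18 (0.74, 2.75 and 2.82 with such genes at their bound). In KO + LEENE against WT + GFP they were 0.73, 1.14 and 4.38 (0.73, 0.71 and 1.91 at the bound). The size of change did not follow distance in one way. In the first 2 comparisons, the class at 500 kb to 1 Mb had a smaller median change than that at 1 to 2 Mb from the midpoint, Gm41148 and Peli2. This class held 8 tested genes from the midpoint, 6 from Gm41148 and 6 from Peli2, and these were not the same genes. Where Ktn1 stood among the classes depended on the reference. The medians at 500 kb to 1 Mb were 0.69, 0.74 and 0.73 from the midpoint and 1.05, 2.69 and 2.07 from Gm41148 (1.02 at the bound in the second), so Ktn1 was above this class in all 3 comparisons from the former and not in KO + LEENE against KO + GFP from the latter. With 1 to 9 tested genes per distance class from the midpoint, the classes were described and not tested.

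**Figure D4:**
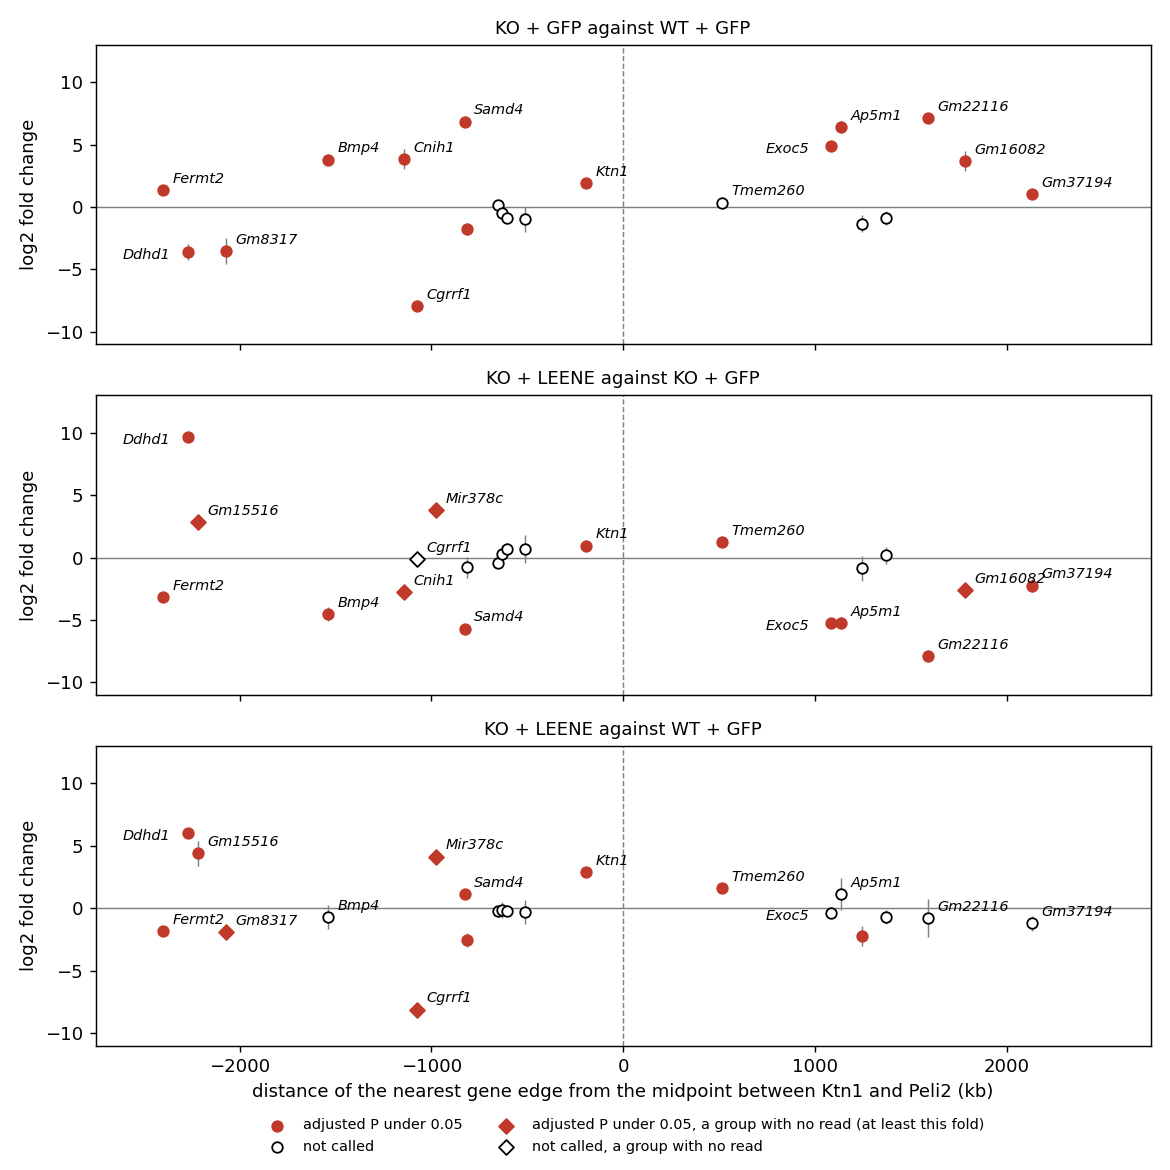
Log2 fold change (points; bars are SE) against the distance of each gene from the midpoint between Ktn1 and Peli2 (kb; negative on the Ktn1 side), in the 3 comparisons. Filled points were called; diamonds are genes with no read in a group, drawn at the least change a floor of 3 reads allows, and genes with too few reads for such a bound are not drawn. Between 500 kb and 1 Mb, called genes (Samd4, Mir378c, Gm10371 and Tmem260) stand beside genes near 0, and many farther genes on both sides lie well away from it.

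The genes left out of the tests were read by range. Of these 64 genes, 34 had reads, with at most 5 in a library and 13 in all, and 30 had none. The 18 olfactory receptor genes, whose products serve the nasal epithelium, had 21 reads in all over 10 genes, with at most 3 in a library. Armh4, the host of Gm16082, had 8 reads in all. A count of 0 allows up to 3 reads, which is 0.535 CPM in the deepest library and 1.69 CPM in the shallowest, so a gene of this kind could be present below that level. Intervals and floors cover counting error only, since no collapsing of molecular identifiers is named.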

How the data were processed

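Bulk RNA-seq was read from 6 libraries, 2 per group, grouped by their titles. Libraries were made, per the labels, with a 10x Genomics 3′ kit (v3.1) and no droplet step. The authors deposited unnormalized read counts per gene, made with featureCounts 2.0.0 over exons of the Ensembl GRCm38 annotation, without strand, from uniquely aligned reads. STAR 2.5.4b, bcl2fastq 2.18 and mm10 are in the submitters' processing notes, whereas the study's methods name mm9. Molecular identifiers were not collapsed in any step named. Reads on exons of more than 1 gene, and reads of near-identical copies, may be lost by such counting.

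From these counts, edgeR 4.0.16 (R 4.3.3) quasi-likelihood tests were run on all 6 libraries with a mean per group, TMM scaling and no covariates. Genes with 15 or more reads in all were kept (12051), with Benjamini-Hochberg adjustment over all of them and a threshold of 0.05. The SE is the log2 fold change divided by the square root of F, an approximation. Ratios are of pooled TMM-scaled reads with exact 95% intervals, or bounds against a floor of 3 reads over a group. Identifiers were matched to names in a later annotation (43465 of 47729). Promoters and the miRNA are from RefSeq on GRCm38.p6 (30 of 87 genes had a promoter window). The scripts were tested on simulated data.

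Ktn1, Peli2 and every tested gene are named; reads per library are given for Ktn1, Peli2 and the 12 other tested genes with the most reads, and for further genes where a result turns on them. The region, role groups and lists were chosen with earlier results of these data known, and the Ktn1 pattern had been seen before, so neither is independent support. With 2 libraries per group, an exact permutation test of 1 value cannot pass the threshold and none was run. The alternatives were other scaling, DESeq2 1.42.0, other filters and thresholds, the 4 libraries compared, other reference points for distance, and leaving out each library.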

Additional observations from a re-analysis of the deposited data

How the results depend on the processing

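Ktn1 kept its direction and call under all 42 alternatives run over its 3 comparisons. For the other tested genes, 791 of 837 results under an alternative kept direction and side of the threshold, 18 changed sign, 16 lost their call and 12 gained one. Among these genes, each change of sign was in a comparison in which that gene had not been called. Leaving out 1 library at a time gave Ktn1 differences of 1.85 to 1.97, 0.905 to 1.01 and 2.81 to 2.93 in KO + GFP against WT + GFP, KO + LEENE against KO + GFP, and KO + LEENE against WT + GFP. The calls then ranged from 12 to 15, 13 to 14 and 9 to 11, those higher from 9 to 10, 4 to 5 and 5 to 6, and those lower from 3 to 5, 9 to 10 and 4 to 5.

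Some alternatives restricted the genes counted. With at least 10 reads in every library (4 genes), there were 3 (3 higher, 0 lower), 4 (1 and 3) and 3 (2 and 1). Among the 10 genes that overlap no other, there were 4 (3 and 1), 5 (3 and 2) and 5 (3 and 2). Within 1 Mb (9 genes), there were 3 (2 and 1), 4 (3 and 1) and 5 (1 lower). In KO + GFP against WT + GFP, the 4 genes called lower became 2 with DESeq2 and 7 by library totals alone, with 9 higher in both. Over all genes, those called lower in this comparison went from 3735 to 2851 with DESeq2 and to 4636 by library totals alone. That was 50.9%, 49.7% and 59.9% of the calls. The cause was not tested. Measured from the start of Peli2, calls under 500 kb became 2 in both comparisons with KO + LEENE, and in KO + LEENE against WT + GFP those at 500 kb to 1 Mb became 0 and those at 1 to 2 Mb 5. Measured from Gm41148, an alternative chosen after seeing the data, the calls per class differed by at most 1, but the median change at 500 kb to 1 Mb became 2.69 in place of 0.74 for KO + LEENE against KO + GFP, and 2.07 in place of 0.73 against WT + GFP. Without mitochondrially encoded genes the region took 0.0814%, 0.152% and 0.172% of reads. With TMM scaling, WT + GFP was highest in 8 genes and KO + LEENE in 5.

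Scaling by library totals alone shifted the genome-wide median difference (log2) from -0.09 to -0.53, from -0.10 to 0.84 and from -0.21 to 0.28, and the share of calls that were lower in KO + LEENE against KO + GFP from 53.7% to 33.7% (54.6% to 41.7% against WT + GFP). Under this scaling these signs turned: Wdhd1 (-0.26, 0.61 with adjusted P = 0.00925 by edgeR, and 0.35), Tmem260 in KO + GFP against WT + GFP (-0.0957), Gm10371 (0.24) and Naa30 (0.15) in KO + LEENE against KO + GFP, and Socs4 (0.43), Mapk1ip1l (0.40), Dlgap5 (0.27) and Exoc5 (0.24) in KO + LEENE against WT + GFP. Leaving out the first KO + GFP library turned Wdhd1 (range over the libraries left out -0.0709 to 0.35) and Tmem260 (-0.39 to 0.71) in KO + GFP against WT + GFP, and Gm10371 (-1.40 to 1.25) in KO + LEENE against KO + GFP. Leaving out another turned Socs4 (-0.11 to 1.29) and Dlgap5 (-0.25 to 1.25) in KO + LEENE against KO + GFP, and Socs4 (-0.54 to 0.25), Dlgap5 (-1.25 to 0.25) and Gm22116 (-3.47 to 0.0763) in KO + LEENE against WT + GFP.

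Samples with the same replicate number did not deviate together (correlations 0.0228, 0.0066 and 0.0144), so the numbers do not pair them. With the replicate number as a block, 14, 14 and 11 genes were called, as without it, and over all genes 7074, 6484 and 6721 in place of 7339, 6740 and 7022. DESeq2 called 5742, 5457 and 5430. Depth limits the 64 untested genes, Peli2 and Gch1 among them.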
